A study of Mus musculus with 6 samples.

Results

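Ferritin and iron handling genes were examined in cultured lung mesenchymal stromal cells (LMSCs) of tumor-bearing mice. The set held 10 of the 34745 genes listed: the ferritin light-chain gene Ftl1 with its copies Gm10116 and Ftl2-ps, the heavy-chain gene Fth1, and Trf, Tfrc, Slc40a1, Slc11a2, Ireb2 and Aco1. The members were selected on their role in iron handling and on FPKM values already seen in these same libraries, so their stage differences are given as a description, with no test. The cells came from MMTV-PyMT mice, of FVB/N background per the study's methods, in which the mammary tumor virus promoter drives the polyoma middle T oncogene in mammary epithelium, and every library carried this transgene. A-LMSCs were taken at the adenoma stage at 6 to 7 weeks of age, PM-LMSCs at the pre-metastatic stage at 9 to 10 weeks and M-LMSCs at the metastatic stage at 13 to 14 weeks, the ages being those of the sample labels; the study's text gives slightly older ages for the first 2 stages. The labels call the first 2 groups E-LMSCs and L-LMSCs. The cells were adherent, CD45-depleted lung cells at passage 3, grown in plastic dishes, with 2 libraries per stage, and stage, age and time in tumor-bearing lungs cannot be told apart.

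Ferritin is a hollow shell of heavy and light chains that stores iron in the cytosol. The heavy chain oxidizes the iron that enters, and the light chain helps to lay it down as mineral. Cells take up iron bound to transferrin (Trf) through the transferrin receptor (Tfrc), move it out of endosomes through Slc11a2 (DMT1), and export it through ferroportin (Slc40a1). The iron regulatory proteins, encoded by Aco1 and Ireb2, bind a short RNA hairpin, the iron-responsive element, when iron is low, and thereby block translation of ferritin and ferroportin and stabilize the receptor transcript. Part of this control therefore acts on translation, which RNA levels do not measure.

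The light-chain genes resemble each other closely in sequence, and the values below depend on how fragments were divided among them, which is not given in the sources used here. In the GENCODE M21 annotation of GRCm38, Ftl1 (ENSMUSG00000050708) lies at chr7:45457944-45459884 on the minus strand. Gm10116 (ENSMUSG00000062382, named Ftl1-ps1 there and typed as protein coding) lies at chr13:74399694-74407346 on the plus strand. Ftl2-ps (ENSMUSG00000082062, a processed pseudogene) is a single block of 552 bases at chr4:125504288-125504839 on the plus strand. Gm10116 aligned with 910 of the 968 bases of the Ftl1 transcript, with 4 mismatches (99.56% identity) and an identical run of 524 bases. Ftl2-ps aligned from base 254 to base 805 of that transcript, the coding sequence with its stop codon, with 7 mismatches (98.73% identity) and an identical run of 306 bases. Counted from the 5′ end of the Ftl1 transcript, with the Ftl1 base first, Gm10116 differed by A196G, G721A, G757A and A817G. Ftl2-ps differed by A560C, T607C, G619C, A654T and T655C and shared G721A and G757A with Gm10116.

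Within bases 254 to 805, a fragment lying wholly between differing bases has the same letters in all 3 copies.

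**Figure D1:**
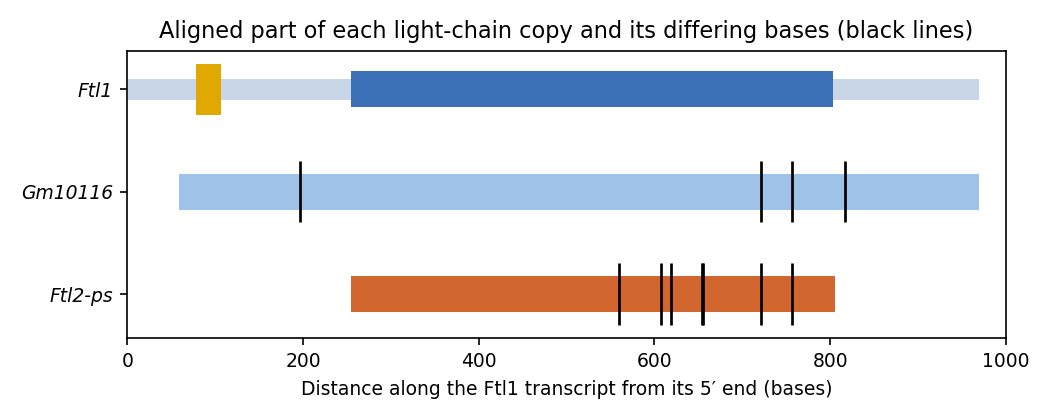
Extent of the alignment of Gm10116 and Ftl2-ps with the Ftl1 transcript, in bases from its 5′ end. The dark blue block is the Ftl1 coding sequence (bases 254 to 802), the yellow block the iron-responsive element (bases 78 to 106) and each black line a differing base. Gm10116 spans bases 59 to 968 with 4 differences and Ftl2-ps bases 254 to 805 with 7, all of them from base 560 on.

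Iron-responsive elements that matched a strict pattern are shown for the members that held one. A C, 5 bases, the loop letters CAGTGN and 5 bases that pair with the former 5 (G-T pairs allowed) were searched on the sense strand of annotated transcripts. Each element below has 29 bases, with the 6 loop letters in capitals. In GRCm38 they lie at chr7:45459779-45459807 (Ftl1, minus strand), chr13:74406428-74406456 (Gm10116, plus strand), chr19:9982732-9982760 (Fth1, plus strand) and chr1:45925465-45925493 (Slc40a1, minus strand), all in the 5′ UTR. Tfrc held 4 in the 3′ UTR, of which the first, at chr16:32631219-32631247 on the plus strand, is shown.
Ftl1: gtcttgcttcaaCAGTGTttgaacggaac
Gm10116: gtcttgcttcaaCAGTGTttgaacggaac
Fth1: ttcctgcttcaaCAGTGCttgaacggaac
Slc40a1: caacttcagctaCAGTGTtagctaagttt
Tfrc: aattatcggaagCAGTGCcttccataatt
The element of Gm10116 was identical to that of Ftl1. No match to these letters was found in Ftl2-ps, whose annotated block begins downstream of the aligned position of the element, nor in Trf, Slc11a2, Ireb2 or Aco1. The search allowed no other loop or unpaired base, and it also found no match in Epas1 and Cdc42bpa, listed below as targets of iron regulatory proteins. The lack of a match therefore does not show that a gene has no element. Of all genes with an annotated 5′ UTR, 31 of 20597 (0.151%) held a match in it, and of those with a 3′ UTR, 129 of 20995 (0.614%) did.

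Values are in FPKM, a fragment count divided by gene length and library total. Depth, estimated from the spacing of low values, ran from 14.8 to 20.8 mega-fragments per library, and FPKM totals from 258249 to 271408. Correlations of libraries over the tested genes were 0.977 to 0.992 within a stage and 0.966 to 0.987 between stages. All 10 listed mesenchymal markers passed the filter of a mean of at least 1 FPKM, with summed levels of 1918 to 2758 FPKM. Erythroid markers, of interest because red cell precursors handle much iron, stayed under 1 FPKM in every library, with 3 of 9 (Hba-a2, Hbb-bs and Hbb-bt) at 0 in all.

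The row that carried the light-chain signal changed in the M-LMSC libraries. Ftl1 stood at 1344 and 1289 FPKM in the A-LMSC libraries, 1195 and 1261 FPKM in PM-LMSC, and 48.0 and 459 FPKM in M-LMSC. Both M-LMSC libraries lay below all others, and they differed from each other by more than the other 4 did. Stage means were 1316 ± 38.7, 1228 ± 46.9 and 253 ± 291 FPKM (SD, n = 2), a ratio of 0.193 for M-LMSC over A-LMSC. On the log2(FPKM + 1) scale, the Ftl1 difference of M-LMSC from A-LMSC was -3.13 (SE 0.90), and it was -1.52 without M-LMSC replicate 1 and -4.75 without M-LMSC replicate 2.

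Gm10116 followed the same order. It stood at 883 and 880 FPKM in A-LMSC, 806 and 829 FPKM in PM-LMSC, and 2.88 and 335 FPKM in M-LMSC. The difference of M-LMSC from A-LMSC was -4.61 (SE 1.78) on the log2(FPKM + 1) scale, -1.39 without M-LMSC replicate 1 and -7.83 without M-LMSC replicate 2. The ratio of Gm10116 to Ftl1 was between 0.657 and 0.731 in 5 libraries and 0.0602 in M-LMSC replicate 1. That library was therefore the exception in the balance of the 2 genes as well as in their levels.

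Ftl2-ps moved the opposite way. It stood at 0.435 and 0.311 FPKM in A-LMSC, 0.490 and 0.570 FPKM in PM-LMSC, and 2123 and 1046 FPKM in M-LMSC. It passed the filter on low values only through the M-LMSC libraries. Its length and the estimated depths gave 5 and 3 fragments in A-LMSC, 4 and 5 in PM-LMSC, and 19361 and 9573 in M-LMSC. Summed over libraries and scaled to depth, the Ftl2-ps level in M-LMSC was 4185 times that in A-LMSC, with a 95% interval of 2124 to 9695 that covers counting error only. For PM-LMSC over A-LMSC the ratio was 1.41, with an interval of 0.482 to 4.19 of the same kind, from 9 and 8 fragments. Among all genes, Ftl2-ps ranked 11717 and 12199 in A-LMSC, 11727 and 11252 in PM-LMSC, and 5 and 18 in M-LMSC, on the FPKM scale. Ftl1 ranked 14 or 15 in the earlier 4 libraries and 940 and 73 in M-LMSC.

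Treated as 1 quantity, the FPKM of the 3 light-chain rows summed to 2227 and 2169 in A-LMSC, 2001 and 2091 in PM-LMSC, and 2174 and 1840 in M-LMSC. The M-LMSC libraries overlapped both other stages in this sum. Its ratio was 0.931 (SD 0.0338) for PM-LMSC over A-LMSC and 0.913 (SD 0.109) for M-LMSC over A-LMSC. These SDs were propagated from the spread between the 2 libraries of each stage, not taken over observed ratios. The share of Ftl2-ps in the sum was between 0.0143% and 0.0273% in the 4 earlier libraries, and 97.7% and 56.9% in the M-LMSC libraries.

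Because Ftl2-ps is annotated with fewer bases than Ftl1, 1 FPKM of it stands for fewer fragments. With each row weighted by its annotated exon length (1340 bases for Ftl1, 1223 for Gm10116 and 552 for Ftl2-ps) the sum, on the scale of Ftl1, was 2150 and 2092 in A-LMSC, 1930 and 2018 in PM-LMSC, and 925 and 1196 in M-LMSC. The ratio of M-LMSC to A-LMSC became 0.50, with both M-LMSC libraries below the other 4. The lengths of Ftl1 and Gm10116 that lie behind the deposited values could not be checked, and fragments from the ferritin UTRs have no place in the Ftl2-ps row. Whether total light-chain RNA fell in M-LMSC thus depends on the scale used.

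**Figure D2:**
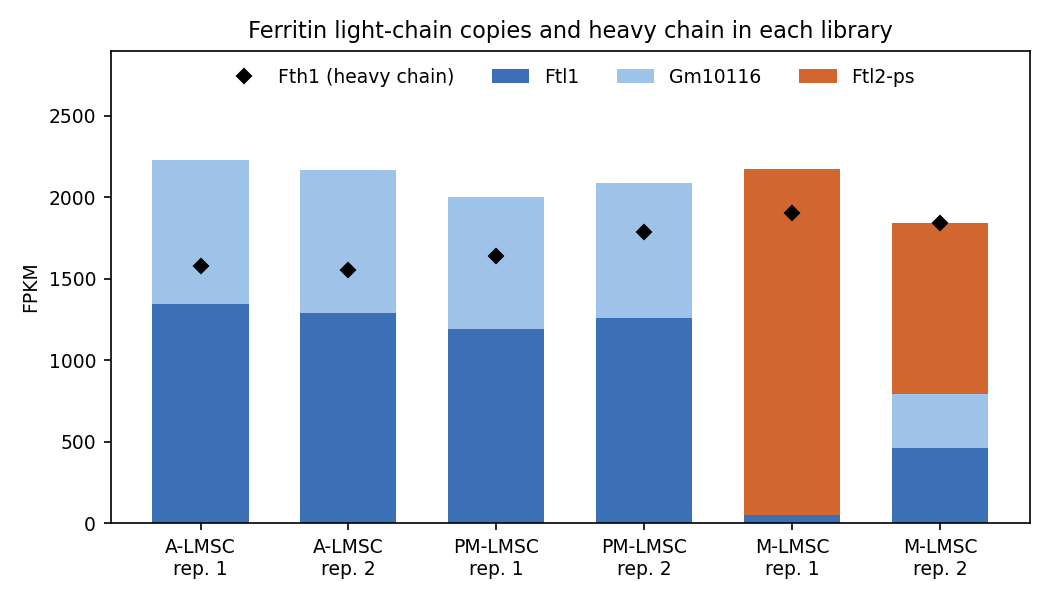
FPKM of the 3 ferritin light-chain rows, stacked, and of the heavy-chain gene Fth1 (diamonds), in each of the 6 libraries. The stacks reach 1840 to 2227 FPKM in every library, whereas Ftl2-ps fills 97.7% and 56.9% of them in M-LMSC and is not visible elsewhere.

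The tested genes nearest to Ftl1 and Ftl2-ps on their chromosomes showed no difference of like size. Around Ftl1 they spanned chr7:45302632-45704682, and genes further out on chromosome 7 that did differ in M-LMSC are described below. Among the 5 nearest tested genes on each side of Ftl1 (Gys1, Ruvbl2, Ntf5, Snrnp70, Trpm4, Bax, Nucb1, Ppp1r15a, Bcat2 and Car11), 0 of 10 passed the limma test in any contrast, and their log2 differences of M-LMSC from A-LMSC ran from -0.50 to 0.48. At an unadjusted p under 0.05 there were 3 for M-LMSC against A-LMSC, 2 for M-LMSC against PM-LMSC and 1 for PM-LMSC against A-LMSC, beside 14.6%, 8.94% and 6.53% of all tested genes. Around Ftl2-ps, 0 of 10 passed, with 0 also at an unadjusted p under 0.05 in each contrast. Their log2 differences of M-LMSC ran from -0.19 to 0.81 against A-LMSC and from -0.13 to 0.13 against PM-LMSC. In all, 7 annotated genes matched the Ftl1 transcript with at least 95% identity over at least 200 bases. Of these, only Gm10116 and Ftl2-ps were among the genes listed with FPKM values, so the other 5 could not be analysed. Gm10252 and Gm47428 matched on the opposite strand and overlap the loci of Ftl1 and Gm10116, so they are not further copies. No such match to Fth1 was found.

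Fth1, the heavy chain (chr19:9980598-9985098, plus strand), was among the 10 most abundant genes in every library on the FPKM scale. It stood at 1576 and 1551 FPKM in A-LMSC, 1637 and 1784 FPKM in PM-LMSC, and 1904 and 1842 FPKM in M-LMSC. The stages did not overlap, although the steps were small, with stage means of 1563 ± 17.3, 1711 ± 104 and 1873 ± 43.5 FPKM (SD, n = 2). Fth1 was 1.09-fold higher in PM-LMSC and 1.20-fold higher in M-LMSC than in A-LMSC, and its log2 difference of M-LMSC from A-LMSC was 0.26 (SE 0.13). The light-chain sum divided by Fth1, both in FPKM, was 1.41 and 1.40 in A-LMSC, 1.22 and 1.17 in PM-LMSC, and 1.14 and 0.999 in M-LMSC. This ratio was lower at each later stage, without overlap. Its size in M-LMSC depends on the scale of the light-chain sum, which was not length-weighted here.

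Transferrin was the member with the largest difference outside the light-chain rows. Trf (chr9:103204001-103230444, minus strand), which encodes the iron carrier of serum, stood at 6.07 and 9.48 FPKM in A-LMSC, 14.5 and 23.8 FPKM in PM-LMSC, and 16.4 and 33.5 FPKM in M-LMSC. All later libraries lay above both A-LMSC libraries, while PM-LMSC and M-LMSC overlapped. Stage means were 7.78 ± 2.41, 19.1 ± 6.59 and 24.9 ± 12.1 FPKM (SD, n = 2), with folds over A-LMSC of 2.46 and 3.20. The Trf log2 differences from A-LMSC were 1.19 and 1.51 (SE 0.38).

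Mesothelial markers moved with Trf. Their summed level was 106 and 159 FPKM in A-LMSC, 284 and 397 FPKM in PM-LMSC, and 190 and 482 FPKM in M-LMSC. Of the 6 listed (Msln, Upk3b, Wt1, Lrrn4, Upk1b and Muc16), 5 had all later libraries above both A-LMSC libraries, and none was at 0 in all libraries. Of all tested genes, 19.6% lay wholly above A-LMSC in PM-LMSC and 27.1% in M-LMSC. The share that did so in both was not counted. For Trf and for the summed mesothelial level, replicate 2 was above replicate 1 at each stage. The sum of the 10 epithelial markers also moved with Trf, at lower levels. It was 3.48 and 6.82 FPKM in A-LMSC, 10.5 and 18.3 FPKM in PM-LMSC, and 10.4 and 23.1 FPKM in M-LMSC. Krt8 and Krt18 made up most of this sum, at 10.4 and 10.2 FPKM in M-LMSC replicate 2. In every library, 6 of the 10 markers stayed under 1 FPKM. All later libraries lay above both A-LMSC libraries for 4 of the 10, among them Krt8 and Krt18. Epcam was at 0 outside M-LMSC and at most 0.473 FPKM there, and Sftpc was highest in A-LMSC replicate 2 (1.07 FPKM). The part of mesothelial or epithelial cells in the Trf values was not tested, and in bulk RNA a changed number of such cells and a changed amount of RNA per cell cannot be told apart.

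The receptor and the endosomal transporter stayed low and overlapped between stages or nearly so. Tfrc (chr16:32608920-32632794, plus strand) stood at 4.12 and 3.18 FPKM in A-LMSC, 4.74 and 2.96 FPKM in PM-LMSC, and 3.77 and 2.51 FPKM in M-LMSC. Its log2 differences from A-LMSC were 0.04 in PM-LMSC and -0.18 in M-LMSC (SE 0.23), less than the spread between replicates. Slc11a2 (chr15:100387898-100425072, minus strand) stood at 7.24 and 7.29 FPKM in A-LMSC, 6.97 and 6.14 FPKM in PM-LMSC, and 6.27 and 7.50 FPKM in M-LMSC. Both PM-LMSC libraries lay below both A-LMSC libraries, and the M-LMSC libraries lay on either side of these.

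Ferroportin, the iron exporter, was near the lower limit of the data. Slc40a1 (chr1:45908068-45926523, minus strand) stood between 0.0468 and 0.258 FPKM in the 6 libraries. It was below the filter and was the only member left out of the fit. The stages overlapped, and no order can be read from these levels.

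The genes of the iron regulatory proteins showed small differences between stages. Aco1 (chr4:40143081-40198338, plus strand), which also serves as cytosolic aconitase, stood at 23.4 and 25.1 FPKM in A-LMSC, 20.3 and 23.7 FPKM in PM-LMSC, and 20.1 and 23.2 FPKM in M-LMSC. Ireb2 (chr9:54863789-54912530, plus strand), whose protein is degraded when iron is plentiful, stood at 5.97 and 4.73 FPKM in A-LMSC, 8.35 and 6.19 FPKM in PM-LMSC, and 8.13 and 5.04 FPKM in M-LMSC. Aco1 in M-LMSC lay just below A-LMSC, with a log2 difference of -0.16 (SE 0.13). Ireb2 lay above A-LMSC in both PM-LMSC libraries, with a log2 difference of 0.38 (SE 0.23), and overlapped it in M-LMSC.

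For 4 members the 2 replicates kept 1 order. Tfrc and Ireb2 were higher in replicate 1 than in replicate 2 at all 3 stages, and Trf and Aco1 were higher in replicate 2. Of all tested genes, 26.0% had replicate 1 above replicate 2 at all 3 stages and 21.2% had the reverse, so that 2 of 9 members in either direction lay near the background.

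**Figure D3:**
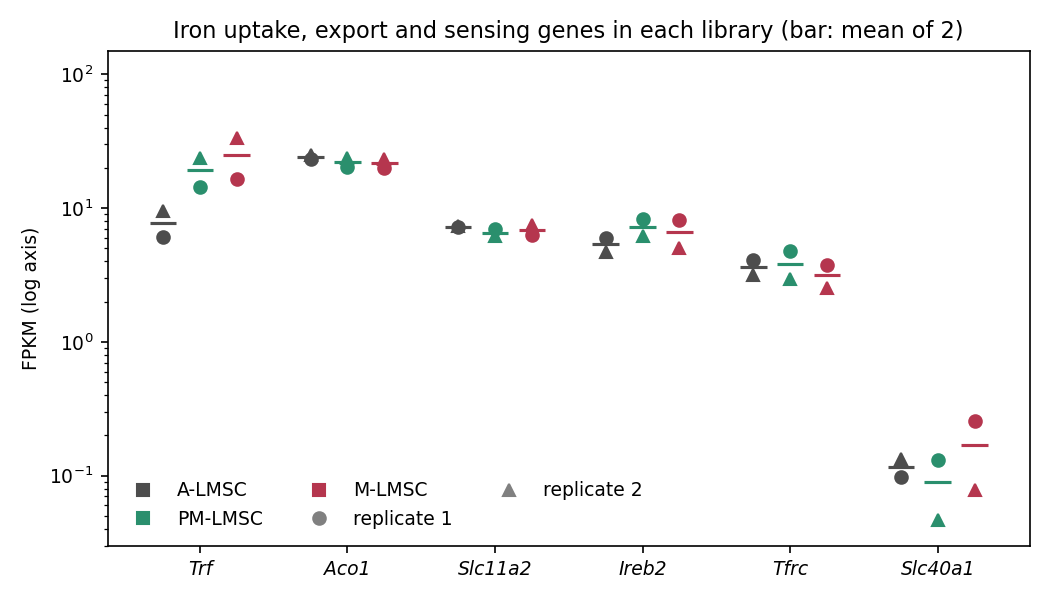
FPKM (log axis) of the 6 iron uptake, export and sensing members in each library, colored by stage, with circles for replicate 1, triangles for replicate 2 and a bar at the stage mean of 2 libraries. Trf separates A-LMSC (6.07 and 9.48 FPKM) from the later stages (14.5 to 33.5 FPKM), whereas Slc40a1 lies under 0.3 FPKM throughout.

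Of the 9 members in the fit, the libraries of PM-LMSC lay wholly above those of A-LMSC for 4 (Ftl2-ps, Ireb2, Trf and Fth1) and wholly below for 3 (Ftl1, Gm10116 and Slc11a2), where 19.6% and 19.7% of all tested genes did so. M-LMSC lay above A-LMSC for 3 (Ftl2-ps, Trf and Fth1) and below for 3 (Ftl1, Gm10116 and Aco1), against 27.1% and 24.4% of all tested genes. M-LMSC lay above PM-LMSC for 2 (Ftl2-ps and Fth1) and below for 2 (Ftl1 and Gm10116), against 17.8% and 16.7%. Nothing is read from these counts, since the members were chosen with these values known and the light-chain rows share most of their sequence. The comparisons also share libraries.

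The rest of the iron pathway was described by list. Of 96 other listed genes in 7 roles, 74 passed the filter, and limma with Benjamini-Hochberg adjustment (threshold 0.05) called 0 of them in each contrast. At an unadjusted p under 0.05 there were 2 for PM-LMSC against A-LMSC, 7 for M-LMSC against A-LMSC and 5 for M-LMSC against PM-LMSC, or 2.7%, 9.46% and 6.76% of the listed genes beside 6.53%, 14.6% and 8.94% of all tested genes. Few genes of any kind were called with 2 libraries per stage: 0.0389% of the 10279 tested genes (4 genes) for PM-LMSC against A-LMSC, 0.0681% (7 genes) for M-LMSC against A-LMSC and 0.0292% (3 genes) for M-LMSC against PM-LMSC. A count of 0 among the listed genes is therefore no different from the background. With the replicate number as a block these counts were 30, 403 and 43, and 1 listed gene, Epas1, was called for M-LMSC against A-LMSC. The median log2 differences of the listed genes were 0.05, 0.02 and -0.01 in the 3 contrasts, beside 0.01, 0.03 and -0.00 over all tested genes. Of the 74, 24.3% lay wholly above and 24.3% wholly below A-LMSC in M-LMSC, close to the 27.1% and 24.4% of all tested genes.

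Epas1, which encodes the hypoxia-inducible factor HIF-2α and is a known target of iron regulatory proteins, had the largest difference among them. It stood at 0.813 and 1.01 FPKM in A-LMSC, 1.22 and 1.04 FPKM in PM-LMSC, and 2.39 and 1.84 FPKM in M-LMSC. Both M-LMSC libraries lay above the other 4. The log2 difference of M-LMSC from A-LMSC was 0.70 (SE 0.14), with a limma adjusted p of 0.114, and 0.0377 with the replicate block. Over the alternatives the adjusted p ran from 0.0377 to 0.573. For Cdc42bpa, a kinase gene of the same group, PM-LMSC (3.92 and 2.74 FPKM) lay wholly above A-LMSC (2.55 and 2.14 FPKM), with a log2 difference of 0.36 (SE 0.23). For this gene M-LMSC overlapped A-LMSC, with a log2 difference of M-LMSC from A-LMSC of 0.24 (SE 0.23).

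Within the other roles, genes with the largest differences included the following, and none passed the test. Among uptake genes, 5 of 9 tested (Steap1, Slc39a14, Slc25a37, Lrp1 and Mcoln1, named after their values were seen) lay wholly below A-LMSC in PM-LMSC and again in M-LMSC. This was 55.6% in each comparison, beside 19.7% and 24.4% of all tested genes, and both comparisons use the same A-LMSC libraries. Steap1, a gene of the Steap family, stood at 28.6 and 28.2 FPKM in A-LMSC, 25.2 and 25.2 FPKM in PM-LMSC, and 22.7 and 24.4 FPKM in M-LMSC. The mitochondrial importer Slc25a37 (mitoferrin 1) stood at 4.13 and 4.22 FPKM in A-LMSC and between 3.14 and 3.48 FPKM in the 4 later libraries, all below A-LMSC. Its relative Slc25a28 (mitoferrin 2) stood between 8.74 and 13.8 FPKM, with overlap of M-LMSC and A-LMSC. Ncoa4, the receptor that delivers ferritin to lysosomes for iron release, stood at 3.31 and 3.50 FPKM in A-LMSC and between 3.87 and 4.80 FPKM later, with a log2 difference of M-LMSC from A-LMSC of 0.34 (SE 0.13). All 4 later libraries lay above A-LMSC for Ncoa4. Bola2, an iron-sulfur chaperone partner, differed by 0.38 (SE 0.12) in PM-LMSC and by 0.03 in M-LMSC from A-LMSC on the log2 scale.

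In the export and hepcidin group 4 of 13 listed genes passed the filter, and all 4 lay higher in M-LMSC than in PM-LMSC without overlap, where 17.8% of all tested genes did; none was called. Neo1, a co-receptor in the hepcidin pathway, stood at 21.1 and 18.3 FPKM in A-LMSC, 21.2 and 18.8 FPKM in PM-LMSC, and 27.4 and 24.1 FPKM in M-LMSC. Its log2 difference of M-LMSC from PM-LMSC was 0.35 (SE 0.13), with a limma adjusted p of 0.517. App, the amyloid precursor protein gene, stood at 282 and 266 FPKM in A-LMSC and 314 and 344 FPKM in M-LMSC.

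Of the heme synthesis enzymes, Alad, an early one, stood at 23.5 and 24.7 FPKM in A-LMSC and 15.8 and 23.1 FPKM in M-LMSC, a log2 difference of -0.32 (SE 0.19). Fech, which inserts iron into the ring, stood at 19.9 and 20.7 FPKM in A-LMSC and 24.1 and 26.2 FPKM in M-LMSC, a log2 difference of 0.29 (SE 0.11). The adjusted p was 0.469 for Alad and 0.280 for Fech by limma. Hmox1, which frees iron from heme, stood between 148 and 220 FPKM with overlapping stages. Among genes listed under heme breakdown and transport, Mfsd7c (Flvcr2) stood at 2.37 and 2.23 FPKM in A-LMSC and 1.65 and 1.53 FPKM in M-LMSC. Slc46a1, of the same list, overlapped between these stages. In PM-LMSC, Slc46a1 (2.76 and 3.89 FPKM) lay wholly above A-LMSC (2.56 and 2.21 FPKM), with a log2 difference of 0.34 (SE 0.20). Of the iron-sulfur cluster genes, Fdxr differed by 0.37 (SE 0.25) between M-LMSC and A-LMSC on the log2 scale.

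**Figure D4:**
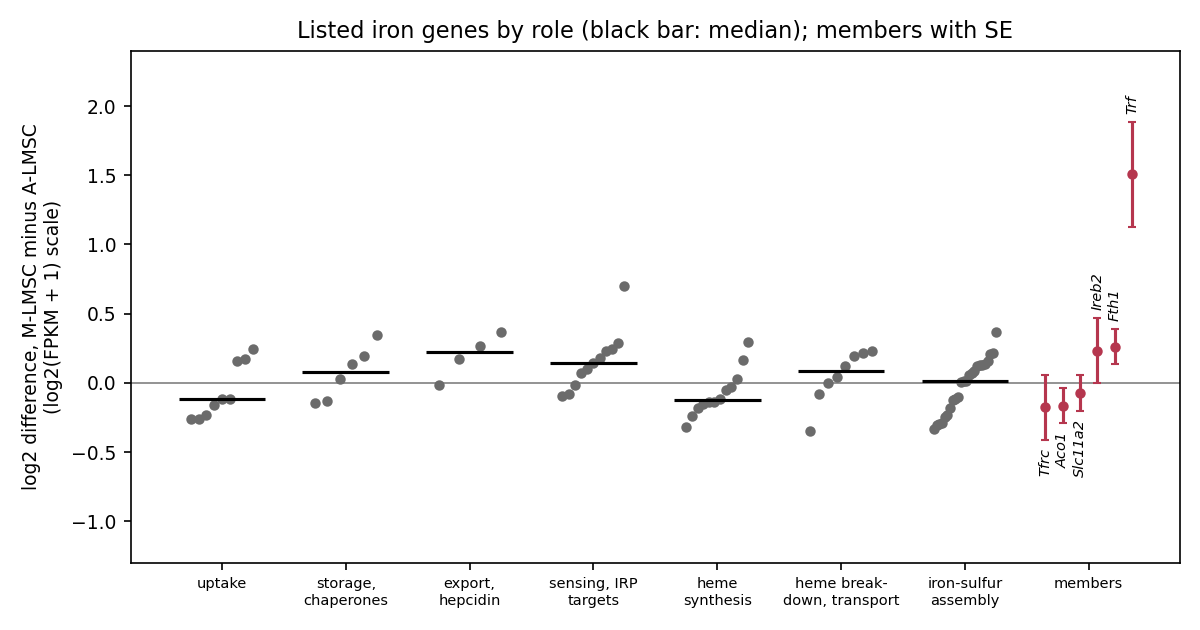
Log2 difference of M-LMSC from A-LMSC (on log2(FPKM + 1)) for the 74 listed iron genes by role, with a black bar at each median, and for 6 members with their SE. The light-chain rows, at -4.61 to 10.09, are left out. The listed genes lie between -0.35 and 0.70, with Epas1 at the top, and Trf at 1.51 lies above all of them.

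Macrophages hold much ferritin, and most of their listed markers were higher in the M-LMSC libraries. The summed level of the 12 listed was 136 and 135 FPKM in A-LMSC, 173 and 77.3 FPKM in PM-LMSC, and 423 and 313 FPKM in M-LMSC, and 10 of the 12 were highest in both M-LMSC libraries. Ptprc, which encodes CD45, was at most 0.0987 FPKM. The part of these cells in the ferritin values was not tested.

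Genes whose levels followed Ftl1 or Ftl2-ps most closely over the 6 libraries were ranked by Pearson correlation on log2(FPKM + 1) among 597 genes with a range of at least 1. The points are 6 libraries in 3 stages, and the values are a description. For Ftl1 these were Uevld (r = 0.992), Klk8 (0.991), Tmem86a (0.989), Htatip2 (0.982) and Rps2-ps10 (0.958). Uevld, Klk8, Tmem86a and Htatip2 lie on chromosome 7, as Ftl1 does, and Rps2-ps10 lies on chromosome 18. Those on chromosome 7 lie outside the span of nearest genes given above, from Klk8 at chr7:43797577-43803826 to Htatip2 at chr7:49759115-49773975. Klk8 stood between 62.1 and 78.4 FPKM in the 4 earlier libraries and at 0.146 and 11.0 FPKM in M-LMSC. As Klk8 was chosen by likeness to Ftl1, its low value in M-LMSC replicate 1 is no separate observation. Htatip2 stood between 12.2 and 16.5 FPKM earlier and at 1.16 and 9.46 FPKM in M-LMSC.

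For Ftl2-ps they included Pop4 (r = 0.980), Igfbp2 (0.977), Slc7a11 (0.974) and Grin2d (0.972). Ftl2-ps lies on chromosome 4, but Pop4 (chr7:38261996-38271423) and Grin2d (chr7:45831883-45878378) lie on chromosome 7, as Ftl1 does. Igfbp2 and Slc7a11 lie on chromosomes 1 and 3. The share of chromosome 7 among the 597 genes compared was not counted. Pop4 stood between 1.35 and 1.58 FPKM in the earlier libraries and at 8.04 and 4.77 FPKM in M-LMSC. Slc7a11, the cystine transporter, stood between 0.284 and 0.388 FPKM earlier and at 3.25 and 5.07 FPKM in M-LMSC. That both were higher in M-LMSC without overlap follows from their choice by likeness to Ftl2-ps, and is no separate observation. In M-LMSC, Pop4 was higher in replicate 1, as Ftl2-ps was, and Slc7a11 was higher in replicate 2.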

How the data were processed

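RNA-seq values of 6 libraries, 2 per stage, were analyzed. The authors deposited 1 table of FPKM per gene and library. Per the submitters' processing notes, mm10 and TopHat2 2.0.9 were used; the counter and annotation are not given in the sources used here, and columns holding no sample values were not used. The study's methods describe adherent lung cells depleted of CD45+ cells with microbeads. The study's text gives 3 mice at each stage, of which 2, with 1 library each, are analyzed here, and the labels number the libraries without naming mice.

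Genes averaging 1 FPKM or more (10279 of 34745) were fitted as log2(FPKM + 1) with limma 3.58.1 in R 4.3.3 (1 mean per stage, eBayes with trend, all 6 libraries, two-sided) and adjusted by Benjamini-Hochberg (threshold 0.05). Differences on this scale understate the change of low genes. Depth was estimated from genes with 1 annotated transcript, in which 94.0% to 94.7% of low values were whole fragments within 0.05. Count models were not used, as lengths of other genes could not be checked. Intervals of the Ftl2-ps ratio were exact binomial (Clopper-Pearson) ones, from fragments of both stages. Deviations from the stage mean correlated between libraries of the same number at 0.238, 0.307 and 0.491, each over 0.1, so a blocked fit (replicate block) is reported where it changed a call or count; all other values come from the fit without it. Copies were searched with blastn 2.17.0 in GENCODE M21, with Biopython 1.88. The fit was tested on simulated data. Alternatives were a pseudocount of 0.1, no filter, quantile normalization, median centring, only the stages compared, a replicate block and each library left out.

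The members and gene lists were chosen with earlier results of these data known. Named genes were the members, listed genes called or with the 2 largest differences in each role, the 5 genes most like Ftl1 and Ftl2-ps, the 5 nearest on each side and near-identical copies. Hmox1 was named after its values were seen, as were the marker genes. Some genes named by this rule and a stretch of sequence are not reported here.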

Additional observations from a re-analysis of the deposited data

Results flagged for a closer look

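Among the listed iron genes, 4 had PM-LMSC wholly on one side of A-LMSC and M-LMSC wholly on the other, 2 of them (Pcbp3 and Narfl) among the 74 tested, or 2.7%, beside 2.88% of all tested genes. The values are log2(FPKM + 1) differences of M-LMSC from PM-LMSC. For Pcbp3, an iron chaperone, the difference was 0.230 (limma adjusted p = 0.613), and for Narfl, of iron-sulfur cluster assembly, it was -0.316 (limma adjusted p = 0.571), so neither passed the test. For Lcn2, which binds iron carriers of bacteria, it was 0.929, and for Cp (ceruloplasmin, a ferroxidase) it was 0.359, and as both were under the filter the difference was not tested. Lcn2 rested on M-LMSC replicate 2, at 2.41 FPKM beside 0.0621 FPKM in replicate 1.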

How the results depend on the processing

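The stage ratios of the light-chain FPKM sum moved by less than the spread between libraries under equal library totals. The alternative of adding further copies is void, as no others were among the genes listed. For M-LMSC over A-LMSC the ratio moved to 0.50 with length weighting. With each library left out, the ratio to A-LMSC ran from 0.910 to 0.951 for PM-LMSC and from 0.837 to 0.989 for M-LMSC. Counts of genes called for PM-LMSC against A-LMSC, 4 in the fit reported, were 1 with no filter, 21 with only the stages compared, 30 with the replicate block and 1 to 28 with a library left out (28 without M-LMSC replicate 1). For M-LMSC against A-LMSC, 7 became 3, 1, 403 and 1 to 90 in the same order (90 without M-LMSC replicate 2). For M-LMSC against PM-LMSC, 3 became 43 with the replicate block and 2 to 25 with a library left out, the highest without M-LMSC replicate 2; with median centring 3 of 4 calls were higher, beside 2 of 3. The listed iron genes had 0 calls throughout, with the exception of 1 (Epas1, M-LMSC against A-LMSC) under the replicate block. The cause was not tested for any of these. Of the members, Trf (1 contrast), Tfrc (3), Slc11a2 (2), Ireb2 (2) and Aco1 (1) took the other sign under 1 or 2 of 12 alternatives, several of which leave a stage difference as it is by construction. With 2 libraries per stage and 14.8 to 20.8 mega-fragments, small differences and genes near 1 FPKM cannot be resolved.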
